A study of Mus musculus with 5 samples.

Results

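Nonsense-mediated decay (NMD) is the pathway by which cells destroy messenger RNAs whose translation stops too early, and the 9 genes described here encode its core proteins: *Upf1*, *Upf2*, *Upf3a*, *Upf3b*, *Smg1*, *Smg5*, *Smg6*, *Smg8* and *Smg9*. They were chosen by name from the 55487 genes of the counts table, and all 9 were found and passed the filter on low counts with 4 and with 5 libraries. The RNA came from HT22 cells, an immortalised mouse line derived from hippocampus, transfected with siRNA at 10 nM, harvested 48 h later and sequenced as poly(A) RNA. The long non-coding RNA Gas5, itself a known target of NMD, was knocked down (KD) with GAS5 siRNA210 (1 library) or GAS5 siRNA596 (2 libraries), and cells given the negative-control NC siRNA (2 libraries) served as the control. All groups share the cell line, the transfection reagent, the dose and the time, and the sample labels call the NC samples untreated although their titles and the paper's methods give NC siRNA. The labels do not say whether replicates were separate cultures, so the *P*-values measure only the spread between these libraries, which may be technical.

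NMD acts during translation. A ribosome that stops upstream of an exon junction complex, the protein mark left where an intron was removed, leaves UPF1 on the RNA, where UPF2 and UPF3 proteins join it and the kinase SMG1, held by its partners SMG8 and SMG9, phosphorylates it. Phosphorylated UPF1 then recruits SMG6, which cuts the RNA, and SMG5, which leads to removal of the poly(A) tail and the cap. Many transcripts of the NMD factors are themselves under NMD in other cells, and UPF2 and UPF3B are known for their part in neuronal development. Spliced Gas5 hosts small nucleolar RNAs in its introns, and what is left after splicing carries only a short reading frame.

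That frame is shown because it is the feature that places Gas5 among NMD targets. In the GENCODE transcripts of GRCm38, the frame that opens at the first ATG was the same in 16 of 25 annotated Gas5 transcripts. It is 72 bases long, with 23 codons before the stop, and in the following sequence the capitals mark its start and stop codons.
Gas5 frame: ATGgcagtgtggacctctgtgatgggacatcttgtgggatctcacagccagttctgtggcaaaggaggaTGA
In 24 of the 25 transcripts at least 1 exon junction lay 50 or more bases downstream of the stop of the first frame. In transcript Gas5-224, which has 12 exons, 7 junctions did.

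*Upf3a* and *Upf3b* are paralogs, so their coding sequences were compared to see whether reads could be split between them. Of 1183 aligned coding bases, 67.9% were identical, and the longest identical run was 15 bases. The run is in capitals in the 75-base windows around it, which cover bases 277 to 351 of the 1269 coding bases of *Upf3a* and bases 232 to 306 of the 1419 of *Upf3b*.
Upf3a: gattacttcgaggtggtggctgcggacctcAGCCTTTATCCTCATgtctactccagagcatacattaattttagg
Upf3b: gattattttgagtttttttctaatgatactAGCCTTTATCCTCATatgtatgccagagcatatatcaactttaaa
No stretch of 50 bases of the longest transcript of *Upf3a* occurs in a transcript of another gene, and the same held for the other members apart from *Upf3b*, with 40 of 2504 such stretches (1.6%) found elsewhere. Exons of *Upf1* overlap *Cers1* and *Gdf1* by 1.47% and 1.36% of their length, and those of *Smg6* overlap *Srr* and *Gm12333* by 1.49% and 1.38%, all on the opposite strand. The strand setting of the counting is not given in the sources used here, so reads in these stretches cannot be told apart.

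The libraries held 30660265 to 36492134 counts. The library labelled siRNA596 replicate 2 stood apart: a chi-square test of counts gave 434 to 448 per degree of freedom between it and each other library, against 4.95 to 34.7 among the other 4. Among those 4, NC replicate 1 was closer to the siRNA210 library (7.80) and to siRNA596 replicate 1 (4.95) than to NC replicate 2 (28.7), and no pair agreed within sampling noise. Gas5, the targeted RNA, stood at 90.4 and 76.0 CPM (counts scaled to library size with TMM factors) in the NC libraries, 59.7 with siRNA210, 65.9 in siRNA596 replicate 1 and 179 in the library labelled siRNA596 replicate 2, so that last library goes against its label, and the name siRNA596 replicate 2 stands below for what its label says only. Every comparison is therefore given first with 4 libraries, without it, and then with all 5. Of the markers fixed for the labelled tissue, 5 of 9 neuron genes (*Rbfox3*, *Snap25*, *Nefl*, *Dcx* and *Stmn2*) and 3 of 5 hippocampal neuron genes (*Prox1*, *Neurod6* and *Calb1*) had 3 counts or fewer in every library. The summed level of 5 fibroblast markers, with *Lum* at 3 counts or fewer, was 4898 to 5497 CPM in the 4 libraries and 3952 in siRNA596 replicate 2, against 93.9 to 102 and 50.5 for the neuron markers and 99.0 to 109 and 23.9 for the hippocampal neuron markers. Of these lists *Map2* (68.8 to 87.0 CPM in the 4 libraries), *Tubb3* (14.9 to 27.1) and *Zbtb20* (97.6 to 108) made up most of the sums.

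All 9 NMD factors were expressed in HT22 cells, with at least 936 counts in every library. On the scale of TMM-scaled CPM per kilobase of exon, *Upf1* was the most abundant, at 38.2 ± 3.69 (SD, n = 2) in the NC libraries, and *Smg5* followed at 26.6 ± 1.65. *Upf2* at 11.6 ± 0.44, *Upf3b* at 11.5 ± 0.20, *Smg1* at 11.2 ± 1.00 and *Smg8* at 10.8 ± 0.65 formed a middle group in which the NC values of each gene overlapped those of the next. *Upf3a* at 8.50 ± 1.24 and *Smg9* at 7.82 ± 0.31 also overlapped, and *Smg6*, the endonuclease, was lowest at 6.74 ± 0.83. The steps from *Upf1* to *Smg5*, from *Smg5* to *Upf2*, from *Smg8* to *Upf3a* and from *Smg9* to *Smg6* were those at which the NC values did not overlap. Among the genes tested with 4 libraries, the members' NC levels lay between percentile 57.7 for *Smg6* and percentile 91.5 for *Upf1*.

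The order of these levels depended on the length used. Per kilobase of the longest protein-coding transcript, a length chosen after the data were seen, *Smg5* stood at 41.5, above *Upf1* at 38.2, and *Upf3a* rose from rank 7 to rank 3 at 24.2, above *Upf3b* at 19.6. The exons of *Upf3a* span 5865 bases when those of all its transcripts are joined, against 2057 bases in its longest protein-coding transcript. *Smg6* was lowest by either length.

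**Figure D1:**
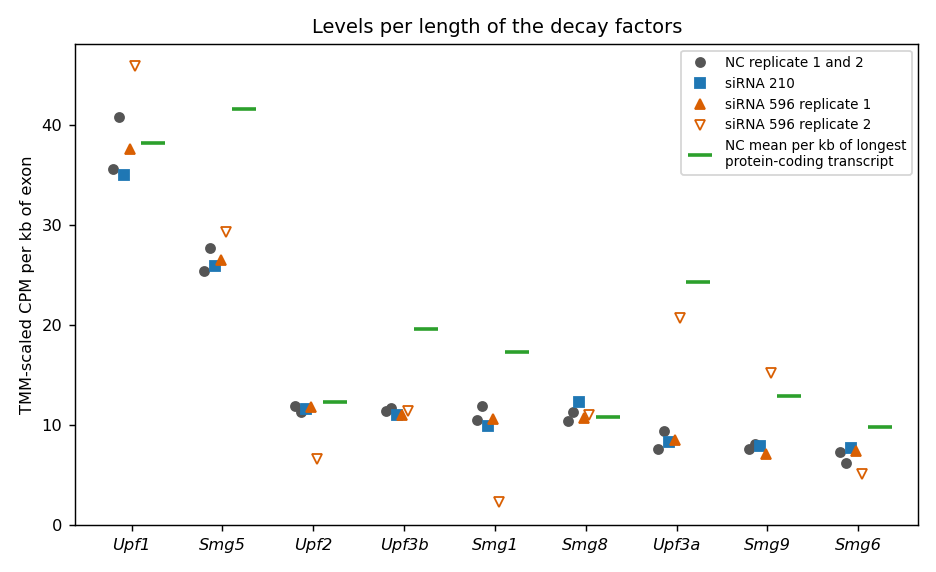
The vertical axis is the level in TMM-scaled CPM per kilobase of joined exons, with 1 symbol per library for each of the 9 genes in the order of the NC mean, and green bars give the NC mean per kilobase of the longest protein-coding transcript. The filled symbols of the 4 libraries lie close together for every gene, whereas the open triangles of siRNA596 replicate 2 lie far below for *Smg1* (2.32) and far above for *Upf3a* (20.7).

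None of the NMD factors passed the test between KD and NC cells. With 4 libraries, none of the 9 passed an adjusted *P* of 0.05 in edgeR's quasi-likelihood test, nor did any of the 15867 genes tested (0% called), and none of the 9 had an unadjusted *P* under 0.05, against 3.3% of genes (523), or 0.876% when a fold of more than 2 was also required. The members' log2 fold changes ran from -0.13 for *Smg1* to 0.15 for *Smg6*, with a median of -0.03 (all genes tested, -0.002), 3 above and 6 below 0. The 95% intervals of all 9 together spanned fold changes from 0.792 to 1.31. With all 5 libraries, again none of the 9 was called (0% of 16142 genes at an adjusted *P* of 0.05, 0.372% at an unadjusted *P* under 0.05, of which 0.192% were higher and 0.18% lower, and 0.353% with a fold of more than 2 as well), the median was 0.03 and the intervals widened to fold changes from 0.236 to 3.29. siRNA596 alone against NC, with 2 libraries each, also called none, against 0.259% of 15827 genes at an unadjusted *P* under 0.05. In bulk RNA of this kind, fewer cells of a type and less RNA per cell cannot be told apart.

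*Upf1* (ENSMUSG00000058301, GRCm38 chromosome 8, minus strand, 70331525 to 70353278) encodes the RNA helicase on which the pathway turns. It had 164 and 188 CPM in the NC libraries, 161 with siRNA210, 174 in siRNA596 replicate 1 and 212 in siRNA596 replicate 2. The KD values of the 4 libraries overlapped those of NC, and only siRNA596 replicate 2 lay above both NC libraries. KD differed from NC by -0.08 on the log2 scale with 4 libraries (standard error 0.09, adjusted *P* = 0.974) and 0.05 with 5 (adjusted *P* = 0.981).

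*Upf2* (ENSMUSG00000043241, chromosome 2, plus strand, 5951469 to 6056703) encodes the bridge between UPF1 and the UPF3 proteins. It was the steadiest member over the 4 libraries, at 65.3 and 61.9 CPM in NC, 63.4 with siRNA210 and 64.5 in siRNA596 replicate 1. In siRNA596 replicate 2 it stood at 35.9 CPM, below every other library. Its log2 fold change with 4 libraries was 0.01 (standard error 0.09, adjusted *P* = 0.998) and -0.22 with 5 (standard error 0.31, adjusted *P* = 0.963).

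The paralogs *Upf3a* and *Upf3b* link UPF2 to the exon junction complex, UPF3B being the stronger activator of decay. *Upf3a* (ENSMUSG00000038398, chromosome 8, plus strand, 13785615 to 13799193) had 44.8 and 55.0 CPM in NC, 48.6 with siRNA210, 49.5 in siRNA596 replicate 1 and 122 in siRNA596 replicate 2. Both KD libraries of the 4 fell between the NC libraries, and the last library was far above them all. The 4 libraries gave a log2 fold change of -0.03 (standard error 0.12, adjusted *P* = 0.988) and all 5 gave 0.55 (standard error 0.47, adjusted *P* = 0.963).

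*Upf3b* (ENSMUSG00000036572, chromosome X, minus strand, 37091678 to 37110322) had 45.4 and 46.6 CPM in NC, 44.0 with siRNA210, 43.9 in siRNA596 replicate 1 and 45.6 in siRNA596 replicate 2. The first 2 KD libraries lay just below both NC libraries, and siRNA596 replicate 2 lay between them. Its log2 fold change with 4 libraries was -0.07 (standard error 0.09, adjusted *P* = 0.975) and -0.05 with 5 (adjusted *P* = 0.976). It was the member with the smallest range over the 5 libraries.

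*Smg1* (ENSMUSG00000030655, chromosome 7, minus strand, 118131308 to 118243670) encodes the kinase that phosphorylates UPF1, a very large protein. It had 252 and 286 CPM in NC, 238 with siRNA210, 253 in siRNA596 replicate 1 and 55.7 in siRNA596 replicate 2. The siRNA210 value lay below both NC libraries and the siRNA596 replicate 1 value between them, while the last library was at 20.7% of the NC mean. The log2 fold change with 4 libraries was -0.13 (standard error 0.09, unadjusted *P* = 0.169, adjusted *P* = 0.967 from edgeR) and -0.56 with 5 (standard error 0.62, adjusted *P* = 0.963).

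*Smg8* (ENSMUSG00000020495, chromosome 11, minus strand, 87077732 to 87086774) and *Smg9* (ENSMUSG00000002210, chromosome 7, plus strand, 24399619 to 24422778) encode the partners that hold and restrain SMG1. *Smg8* had 33.3 and 36.3 CPM in NC, 39.6 with siRNA210, 34.2 in siRNA596 replicate 1 and 35.5 in siRNA596 replicate 2, so that only siRNA210 lay outside the NC values. *Smg9* had 28.1 and 29.8 CPM in NC, 29.2 with siRNA210, 26.3 in siRNA596 replicate 1 and 56.1 in siRNA596 replicate 2. For *Smg9* siRNA596 replicate 1 lay below both NC libraries and replicate 2 above them, and neither gene passed the test. The log2 fold changes were 0.08 for *Smg8* (standard error 0.12, adjusted *P* = 0.975) and -0.06 for *Smg9* (standard error 0.11, adjusted *P* = 0.977) with 4 libraries, and 0.07 and 0.36 with 5 (adjusted *P* = 0.970 and 0.963).

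The effectors *Smg5* (ENSMUSG00000001415, chromosome 3, plus strand, 88336260 to 88362338) and *Smg6* (ENSMUSG00000038290, chromosome 11, plus strand, 74925823 to 75164448) carry the decision to the RNA, by recruiting decay enzymes and by cutting. *Smg5* had 177 and 193 CPM in NC, 180 with siRNA210, 184 in siRNA596 replicate 1 and 204 in siRNA596 replicate 2. Its log2 fold change with 4 libraries was -0.02 (standard error 0.08, adjusted *P* = 0.983) and 0.03 with 5 (adjusted *P* = 0.982). *Smg6* had 61.9 and 52.0 CPM in NC, 64.6 with siRNA210, 62.2 in siRNA596 replicate 1 and 42.7 in siRNA596 replicate 2.

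*Smg6* had the highest log2 fold change among the members with 4 libraries, 0.15 (standard error 0.10, unadjusted *P* = 0.177, adjusted *P* = 0.967), and -0.01 with 5 (adjusted *P* = 0.995). Both KD libraries of the 4 lay above both NC libraries, the lower of them by less than 0.3 CPM. *Smg6* and *Upf3b* were the members whose KD and NC values did not overlap with 4 libraries, 2 of 9, against 32.8% of genes tested (16.7% with KD higher and 16.2% with KD lower), and with 5 libraries all 9 overlapped, against 17.8% of genes that did not (8.3% with KD higher and 9.48% with KD lower). Without NC replicate 1, *Smg6* (log2 fold change 0.28, unadjusted *P* = 0.0194, adjusted *P* = 0.250) and *Smg1* (-0.22, unadjusted *P* = 0.0297, adjusted *P* = 0.273) had an unadjusted *P* under 0.05, in a fit in which the number of such genes rose from 523 to 2776. Without NC replicate 2, *Smg6* was at 0.035 (unadjusted *P* = 0.650) and *Smg1* at -0.038 (unadjusted *P* = 0.597).

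**Figure D2:**
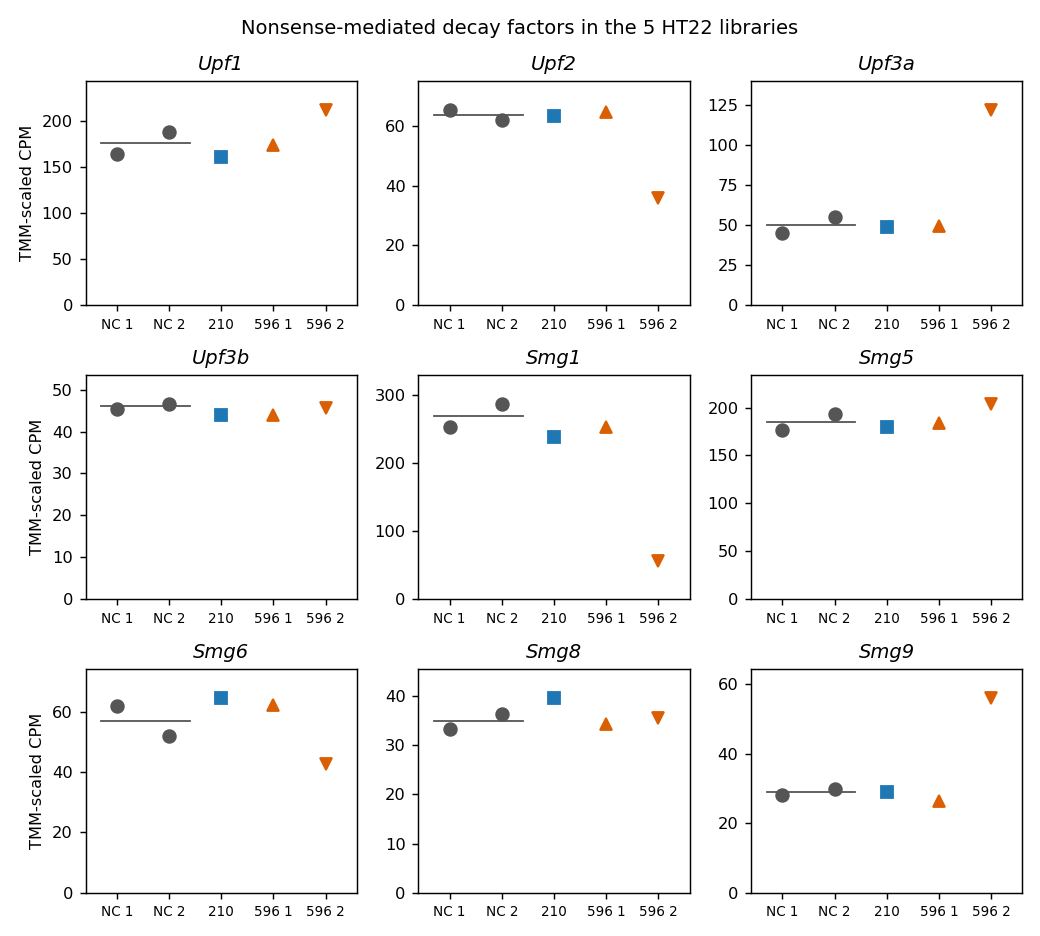
Each panel gives 1 gene, with TMM-scaled CPM on a vertical axis that starts at 0 and the 5 libraries on the horizontal axis, and the grey line marks the mean of the 2 NC libraries. The siRNA210 library and siRNA596 replicate 1 sit near that line in every panel, and siRNA596 replicate 2 leaves it furthest in proportion for *Smg1* (20.7% of the NC mean), *Upf3a* (244%) and *Smg9* (194%).

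**Figure D3:**
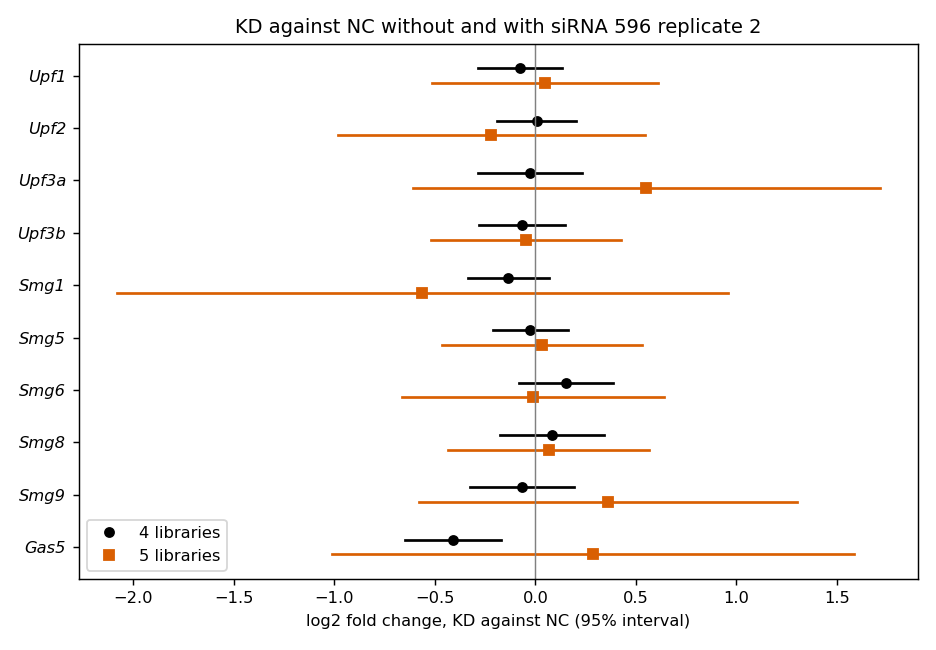
Points are log2 fold changes of KD against NC with their 95% intervals from edgeR, black for 4 libraries and orange for 5. The intervals of all 9 members include 0 in both fits, whereas that of Gas5 lies below 0 with 4 libraries (-0.65 to -0.17) and includes 0 with 5. The library left out of the 4 was set aside partly for its Gas5 value, so the Gas5 interval is not free of that choice.

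For the members, the fold changes of KD against NC, which average 2 libraries a group, were in the median smaller than the differences between single NC libraries. The median absolute log2 ratio between the NC libraries was 0.127 for the members (all genes tested, 0.197), and 7 of 9 members were higher in NC replicate 2. The median absolute log2 fold change of KD against NC was 0.067 for the members and 0.119 for all genes tested with 4 libraries. Between the siRNA210 library and siRNA596 replicate 1 the members' median absolute log2 ratio was 0.056.

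The balance of members within a library does not depend on the scaling between libraries. The ratio of *Upf3b* to *Upf3a*, per kilobase of joined exons, was 1.49 (95% interval from counts 1.39 to 1.60) in NC replicate 1, 1.24 (1.16 to 1.32) in NC replicate 2, 1.33 (1.24 to 1.42) with siRNA210 and 1.30 (1.21 to 1.39) in siRNA596 replicate 1, so both KD libraries lay between the NC libraries. In siRNA596 replicate 2 it was 0.550 (0.514 to 0.588). The ratio of *Upf1* to *Upf2* was 2.98 and 3.61 in NC, 3.02 and 3.19 in the first 2 KD libraries and 7.003 in siRNA596 replicate 2. These intervals cover counting error only.

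Within the SMG1 complex, the ratio of *Smg8* to *Smg1* was 0.985 (0.926 to 1.05) and 0.945 (0.893 to 1.00) in NC, 1.24 (1.17 to 1.31) with siRNA210, 1.01 (0.950 to 1.07) in siRNA596 replicate 1 and 4.74 (4.36 to 5.15) in siRNA596 replicate 2. The siRNA210 library thus lay above both NC libraries by more than counting error, with 1 library and no test of the condition. The ratio of *Smg9* to *Smg1* was 0.723 and 0.674 in NC, 0.793 with siRNA210, 0.674 in siRNA596 replicate 1 and 6.53 in siRNA596 replicate 2. The ratio of *Smg9* to *Smg8* was 0.734 and 0.713 in NC, 0.640 and 0.668 in the first 2 KD libraries and 1.38 in the last. For the effectors, the ratio of *Smg6* to *Smg5* was 0.288 and 0.222 in NC, 0.296 and 0.278 in the first 2 KD libraries and 0.173 in siRNA596 replicate 2.

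The large departures of the members in siRNA596 replicate 2 ran with the length of the longest protein-coding transcript, a length chosen after the data were seen. Relative to the mean of the other 4 libraries, *Smg1* was at a log2 ratio of -2.21 (4.62-fold lower) and *Upf3a* at 1.30 (2.46-fold higher). They were the 2 of 9 members past 2-fold, against 40.2% of all genes tested, and in no other library was a member 2-fold from the rest. *Smg9* stood at 0.99, *Upf1* at 0.30, *Smg5* at 0.15, *Upf3b* at 0.02, *Smg8* at -0.02, *Smg6* at -0.50 and *Upf2* at -0.83. *Smg1* has the longest protein-coding transcript of the 9, at 15557 bases, and *Upf3a* the shortest, at 2057 bases. By joined exons *Smg1* is still the longest, at 23984 bases, but *Upf3a* is not the shortest. At 5865 bases it is longer than *Upf2* (5474), which was lower in that library, and *Smg8* (3218), which hardly moved. Over the 10568 genes that averaged 5 CPM or more, Spearman's rho between that library's log2 ratio and protein-coding transcript length was -0.723. This is a description over genes that share 1 library. By the same measure the other 4 libraries had rho from 0.548 to 0.648. Each of them was set against a mean that includes siRNA596 replicate 2.

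After subtraction of a trend fitted over those genes on length and GC content, the residuals of the members ran from -0.38 for *Smg1* to 0.70 for *Upf3a*, within 1 SD of the residuals of all genes (0.729), with the length of the longest protein-coding transcript, which was chosen after the data were seen. With the length of all joined exons instead, they ran from -0.56 for *Smg1* to 1.47 for *Upf3a*, which is past 1 SD (0.795). With the protein-coding length, *Upf1* kept 0.60, *Smg5* 0.42, *Smg9* 0.34, *Smg6* 0.23, *Smg8* 0.01, *Upf2* -0.02 and *Upf3b* -0.14. With joined exons these residuals were 0.13, 0.42, 0.57, 0.06, -0.39, -0.44 and 0.11, in the same order. Gas5 kept a residual of 1.24, exceeded by 2.95% of genes, at the 2556 bases of its longest transcript, Gas5-218. That transcript has 4 exons, whereas Gas5-224, with 12 exons, has 502 bases. No residual was computed at such a shorter length, so Gas5 and the members cannot be contrasted on it. What made this library differ was not tested. The direction of the length trend, the marker sums above and the spread of the members each set it apart from the other libraries, and no link among them was tested.

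**Figure D4:**
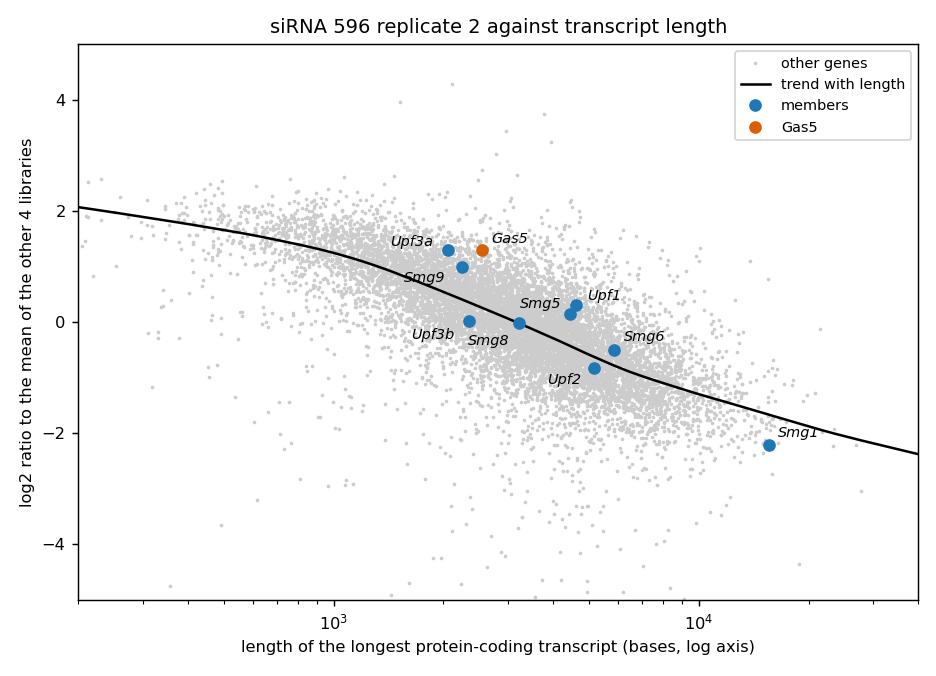
The horizontal axis is the length of the longest protein-coding transcript in bases on a log axis (for Gas5, the longest transcript), and the vertical axis is the log2 ratio of siRNA596 replicate 2 to the mean of the other 4 libraries. Grey points are other genes (20 lie outside the axes), and the line is the trend with length alone. The blue members run from *Upf3a* at 1.30 to *Smg1* at -2.21, but not all lie on the line. *Upf1* (0.30) and *Smg5* (0.15) are above 0 where the line is at -0.48 and -0.43.

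Of the other genes of the pathway, few had an unadjusted *P* under 0.05 between KD and NC and none passed the adjusted threshold. Among 9 accessory factors, with 4 libraries, 1 had an unadjusted *P* under 0.05 and was higher (all genes, 1.75% higher and 1.55% lower), and the list's median log2 fold change was -0.01. That gene was *Ppp2r1a*, the scaffold of the phosphatase PP2A, which removes phosphate from UPF1. It had 352 and 353 CPM in NC, 427 with siRNA210, 391 in siRNA596 replicate 1 and 601 in siRNA596 replicate 2, so both KD libraries of the 4 were above both NC libraries, as for 16.7% of genes tested, and the library whose Gas5 goes against its label was higher still. Its log2 fold change was 0.21 (standard error 0.08, unadjusted *P* = 0.0277, adjusted *P* = 0.967) with 4 libraries and 0.42 (unadjusted *P* = 0.172) with 5. *Sec13*, a coat and nuclear pore protein, was at -0.16 (adjusted *P* = 0.967).

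None of the 9 exon junction complex genes had an unadjusted *P* under 0.05 with 4 libraries, and their median was -0.01. *Magohb*, which encodes a core subunit, was at -0.17 and *Pym1*, whose protein takes the complex off the RNA, at 0.11 (adjusted *P* = 0.974 for both). In siRNA596 replicate 2 the median log2 ratio of these 9 genes to the other 4 libraries was 1.30, with 5 of 9 more than 2-fold higher (16.9% of all genes), against 0.02 for the NMD factors. The other lists moved in that library too, with medians of 0.55 for accessory factors, 0.41 for termination and cap binding, 0.48 for NMD substrates and -0.46 for degradation. No residual from the length trend is given here for these lists. When only library size was used for scaling, the median of all genes in that library fell from -0.07 to -0.33, that of the exon junction complex from 1.30 to 1.03 and that of the members from 0.02 to -0.25.

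Of the 6 genes of termination and cap binding, *Gspt2* had no count in any library, and none of the other 5 had an unadjusted *P* under 0.05 (median -0.07). *Gspt1*, the release factor eRF3a, was at -0.19 (unadjusted *P* = 0.0631) and *Ncbp1*, of the nuclear cap-binding complex, at -0.08. None of the 16 genes of degradation passed either (median -0.06), with *Dcp1b*, a decapping cofactor, at 0.44 (standard error 0.29) and *Dis3*, a nuclease of the exosome, at -0.21 (unadjusted *P* = 0.0614). With 5 libraries no gene of these 4 lists had an unadjusted *P* under 0.05.

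Of 26 genes with transcripts known as NMD substrates, 2 had an unadjusted *P* under 0.05 with 4 libraries (all genes, 3.3%). Their median log2 fold change was -0.01. The counts are totals per gene over all its transcripts, so a change in only some transcripts of a gene cannot be read from them. Gas5, the target of the siRNAs, was lower, at -0.41 (standard error 0.11, unadjusted *P* = 0.00377, adjusted *P* = 0.967). The library left out of this fit had been set aside partly for its Gas5 value, so the Gas5 result is not free of that choice. *Tbl2*, which encodes a membrane protein of the endoplasmic reticulum, was higher, at 0.22 (standard error 0.09, unadjusted *P* = 0.0335, adjusted *P* = 0.967). *Tbl2* had 157 and 151 CPM in NC, 190 with siRNA210, 169 in siRNA596 replicate 1 and 80.1 in siRNA596 replicate 2. *Gadd45a*, a stress-induced gene, was at 0.44 with the widest error of those named (standard error 0.34), since its NC libraries had 32.8 and 12.5 CPM. The 6 other small nucleolar RNA host genes on the list were picked out after their values were seen. They were *Snhg1*, *Snhg5*, *Snhg8*, *Snhg12*, *Snhg15* and *Zfas1*. Their log2 fold changes with 4 libraries ran from -0.04 for *Zfas1* to 0.06 for *Snhg8*. In siRNA596 replicate 2 all 6 were higher, as Gas5 was. Their log2 ratios to the mean of the other 4 libraries ran from 0.99 for *Snhg12* to 1.91 for *Snhg8*, against 1.29 for Gas5. The rise in that library was thus not particular to Gas5, and its cause was not tested. With 5 libraries no substrate had an unadjusted *P* under 0.05, and Gas5 was at 0.29 (unadjusted *P* = 0.607).

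**Figure D5:**
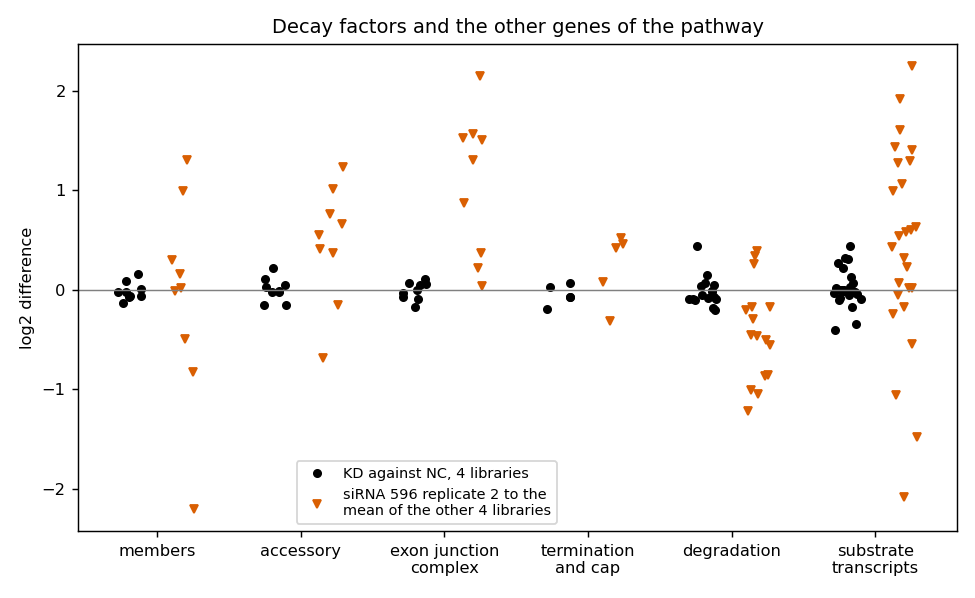
Each point is 1 tested gene, grouped by list, with the log2 difference on the vertical axis, black for the log2 fold change of KD against NC with 4 libraries and orange for the log2 ratio of siRNA596 replicate 2 to the mean of the other 4. The black points lie between -0.41 and 0.44 in all lists, and the orange points spread from -2.21 to 1.30 for the members.

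The genes whose pattern over the 5 libraries was most like the mean of the 9 members were *Atp9b*, *Flna*, *Eps15l1*, *Arfgap2* and *Pcnx3*, with Pearson's r of 0.998 to 0.995 over 5 libraries among 10565 genes of at least 5 CPM. Over 4 libraries they were *Jade2*, *Cbr1*, *Flnc*, *Plscr2* and *Mbd3*, among 10526 genes, and no gene was in both sets. With so few libraries such values are a description only.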

How the data were processed

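Counts were deposited by the authors as whole numbers of reads per gene, 1 column per library, without normalization. Per the labels and the paper's methods, reads were trimmed with Trimmomatic, aligned with HISAT2 2.1.0 to GRCm38, handled with SAMtools 1.7 and counted with featureCounts 2.0.1 on the Ensembl annotation. How reads that map to several places were treated is not given in the sources used here. The authors' deposited table of log2 fold changes and *P*-values was not used.

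Genes were named through GENCODE (99.5% matched). Tests used edgeR 4.0.16 (TMM, filterByExpr, quasi-likelihood) in R 4.3.3 over all genes, with Benjamini-Hochberg adjustment. DESeq2 1.42.0, other scalings and filters, length and GC offsets, a replicate block and each library left out served as alternatives. Levels are TMM-scaled CPM per kilobase of joined exons, and limma 3.58.1 fitted the trend with length. The steps were run on simulated data with the same spread in every library and no outlying library. That run therefore cannot show how the fits behave with siRNA596 replicate 2. Figures used Python 3.11.15 and matplotlib 3.10.9.

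The members and lists were chosen with earlier results of these data known. Named beside the members and Gas5 were list genes with an unadjusted *P* under 0.05 with 4 libraries, the 2 largest absolute changes per list, and the 5 genes most alike in log2(CPM + 1). Of the accessory list, 1 gene was left out and is not reported here. Precision is limited by 1 to 2 libraries per siRNA, and intervals of ratios are exact binomial intervals at 95%.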

Additional observations from a re-analysis of the deposited data

How the results depend on the processing

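None of the 9 members passed an adjusted *P* of 0.05 under any alternative run. The smallest adjusted *P* of a member was 0.250 among alternatives to the 4-library fit, 0.870 for 5 libraries and 0.983 for siRNA596 alone. Members with an unadjusted *P* under 0.05 numbered 0 to 2 when each of the 4 libraries was left out (2 without NC replicate 1), and genes called at an adjusted *P* numbered 0 to 1 (1 without the siRNA210 library) and 1 with DESeq2. Where leaving out a library left 1 in a group, that library was assumed to vary like the others.

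Genes at an unadjusted *P* under 0.05 with 4 libraries numbered 523, against 924 without a filter, 60 with all 5 libraries, 2776 without NC replicate 1 and 170 without the siRNA210 library. With 5 libraries they numbered 60, against 138 with DESeq2, 33 without NC replicate 2 and 523 without siRNA596 replicate 2.

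The replicate numbers shared by NC and siRNA596 give 2 pairs, whose deviations correlated at 0.139 over 15827 genes. The siRNA596 deviation includes the outlying replicate 2, so this value cannot show whether the numbers mark pairs. They were treated as numbers only in the main fit. With the replicate block, siRNA596 against NC had 428 genes at an unadjusted *P* under 0.05, against 41 without, and 1 member, *Smg1* (log2 fold change -1.17, unadjusted *P* = 0.0499, adjusted *P* = 0.9995). With the block and the length and GC offsets, 48 genes and no member did, and *Upf2* (0.0074) and *Smg6* (0.19) changed sign.

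Adding siRNA596 replicate 2 turned the sign of 6 members, to 0.048 for *Upf1*, -0.22 for *Upf2*, 0.55 for *Upf3a*, 0.034 for *Smg5*, -0.012 for *Smg6* and 0.36 for *Smg9*, and of Gas5 to 0.29. With library size only, *Upf2* changed sign with 4 libraries (-0.011), and *Upf1* (-0.067), *Smg5* (-0.075) and *Smg8* (-0.035) with 5. With length and GC offsets and 5 libraries, *Upf2* (0.024) and *Smg6* (0.19) did. The cause was not tested. Leaving out each of the 4 libraries gave log2 fold changes of -0.17 to 0.029 for *Upf1*, -0.029 to 0.045 for *Upf2*, -0.17 to 0.13 for *Upf3a*, -0.22 to -0.038 for *Smg1*, -0.087 to 0.043 for *Smg5*, 0.035 to 0.28 for *Smg6*, -0.028 to 0.18 for *Smg8* and -0.14 to 0.0058 for *Smg9*. For *Upf3b* they were -0.085 to -0.046 and for Gas5 -0.53 to -0.28. With 5 libraries the ranges were -0.076 to 0.15 for *Upf1*, -0.36 to 0.0069 for *Upf2* and -0.027 to 0.78 for *Upf3a*. They were -0.069 to -0.033 for *Upf3b*, -0.87 to -0.13 for *Smg1* and -0.033 to 0.094 for *Smg5*. The rest were -0.13 to 0.15 for *Smg6*, 0.0018 to 0.12 for *Smg8*, -0.065 to 0.56 for *Smg9* and -0.41 to 0.56 for Gas5.

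NC levels per kilobase of the longest transcript were 41.5 for *Smg5*, 12.3 for *Upf2*, 18.01 for *Upf3b*, 17.3 for *Smg1*, 13.5 for *Upf3a*, 12.9 for *Smg9* and 9.74 for *Smg6*, and per kilobase of the longest protein-coding transcript, added after the data were seen, 19.6 for *Upf3b* and 24.2 for *Upf3a*, the others being equal. NC ratios of raw counts were 0.931 for *Upf3b* to *Upf3a*, 2.78 for *Upf1* to *Upf2*, 0.833 for *Smg9* to *Smg8*, 0.310 for *Smg6* to *Smg5*, 0.129 for *Smg8* to *Smg1* and 0.108 for *Smg9* to *Smg1*. Per kilobase of the longest protein-coding transcript they were 0.817 for *Upf3b* to *Upf3a*, 1.19 for *Smg9* to *Smg8*, 0.626 for *Smg8* to *Smg1* and 0.748 for *Smg9* to *Smg1*. Each member had at least 936 counts in every library, and groups had 1 or 2 libraries.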
